A study of Mus musculus with 11 samples.

Results

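The 9 tight junction genes described here were Cldn5, Ocln, Tjp1, Cldn1, Cldn2, Cldn11, Esam, Jam2 and F11r, chosen by name as genes of the seals between cells at the barriers of the brain. All 9 were found among the 26921 genes of the count tables. They were read in endothelial cells (ECs), choroid plexus epithelium (CPE) and fibroblast-like cells (Fibro), first between these 3 cell types and then between conditions within each. The assay was droplet single-cell RNA sequencing (10x Genomics, 3′ chemistry) of C57BL/6 mouse cortex from which myelin had been removed and the meninges dabbed off with filter paper.

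The 11 libraries fell into 4 conditions. Juvenile mice at postnatal day 10 (P10) gave 4 libraries, adult mice of 7 to 11 weeks gave 3, aged mice of 18 months gave 2, and mice of 7 to 11 weeks at the peak of experimental autoimmune encephalomyelitis (EAE) gave 2. EAE was raised with the myelin peptide MOG35–55 in Complete Freund's Adjuvant plus pertussis toxin, and a group given adjuvant without peptide was not analysed here. Per the paper, P10 and adult samples came from pooled tissue of 6 mice, and aged and EAE samples from that of 3. Whether each library had a pool of its own is not stated.

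Tight junctions close the gap between neighbouring cells. Claudins and occludin form the strands, adhesion molecules of the immunoglobulin family sit beside them, and scaffold proteins such as ZO-1 tie the strands to actin. At the blood-brain barrier the seal lies between ECs. In the choroid plexus the capillaries are leaky and the seal lies between the epithelial cells, which make the blood-cerebrospinal fluid barrier. Fibroblast-like cells lie around larger vessels and in the meninges, where one fibroblast layer, the arachnoid, also forms a barrier.

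After filtering, 50625 of 54646 barcodes were kept, with 15755504 to 34326349 UMIs (unique molecular identifiers, counted molecules) per library and a median of 2420 to 4199.5 UMIs per cell. Clustering without any junction gene gave 21162 EC, 6671 CPE, 1171 Fibro and 8757 microglia, all named from other markers. The CPE cells fell in clusters 3, 10 and 16, and the Fibro cells in clusters 13 and 25. Adult library 1 stood apart from adult libraries 2 and 3 in ECs (chi-square per degree of freedom 27.4 and 28.1), whereas libraries 2 and 3 differed little (1.38). P10 libraries 1 and 2 (2.43) and 3 and 4 (2.25) were also close. These 3 close pairs were each summed, which left 8 units, 2 in each condition. The aged pair (2.496) and the EAE pair (1.86) were about as close, so their p-values may measure technical spread only. The 4 conditions shared 1 estimate of spread in each fit, so these close pairs also enter the p-values of P10 against adult, which may be too small. Log2 differences rest on totals that edgeR rescaled by TMM, so they can differ from the ratio of the values printed beside them. Values are UMIs per 1000000 UMIs of that cell type in that unit (CPM), on plain totals. They are not divided by gene length, so levels are compared between cells for one gene and not between genes. On this scale the fibroblast marker list of 12 genes summed to 5932 to 12666 CPM in Fibro, with up to 2 genes at 0 in a unit, and to at most 330 CPM in the other barrier cells. The CPE list of 14 genes took 324566 to 370313 CPM of the CPE, the transthyretin gene Ttr included. With Ttr and mitochondrial genes left out of the totals, mean CPE levels rose, for example to 158 CPM for Cldn1, 281 CPM for Cldn2 and 137 CPM for Ocln, and no direction between cell types turned except that of Tjp1 between CPE and Fibro, which was near 0.

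Cldn5, Esam, Jam2, Ocln and Tjp1 had their highest level in ECs among the cell types found, Cldn1 and Cldn2 in CPE, Cldn11 in oligodendrocytes and then Fibro, and F11r in microglia and then ECs. Cldn5, the main strand protein of the blood-brain barrier, reached 6895 CPM in the lowest, 7814 in the median and 9503 in the highest EC unit (mean 7923 ± 1011 SD, n = 8). The next cell type was mural cells with 814 ± 531 CPM (SD, n = 8). Every EC unit lay above 6895 CPM, and no CPE or Fibro unit passed 465 CPM. Mural cells also came next in Esam, with 650 ± 89.5 CPM against 1383 ± 116 in ECs (SD, n = 8).

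Free RNA in a droplet gives UMIs in cells that do not make a gene, so microglia, which form no tight junctions, were read beside each barrier cell. Cldn5 stood 20.8 to 87.3 times above microglia of the same unit in ECs. In CPE it stood at 0.799 to 1.18 times the microglia, and in Fibro at 0.759 to 2.35 times. Cldn5 in CPE was therefore at the level of a cell type that should lack it. The endothelial marker list, 13 genes in the files, summed to 779 to 1959 CPM in CPE, 339 to 1518 CPM in microglia and 1786 to 3004 CPM in Fibro. Its part in the low Cldn5 of CPE and Fibro was not tested.

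**Figure D1:**
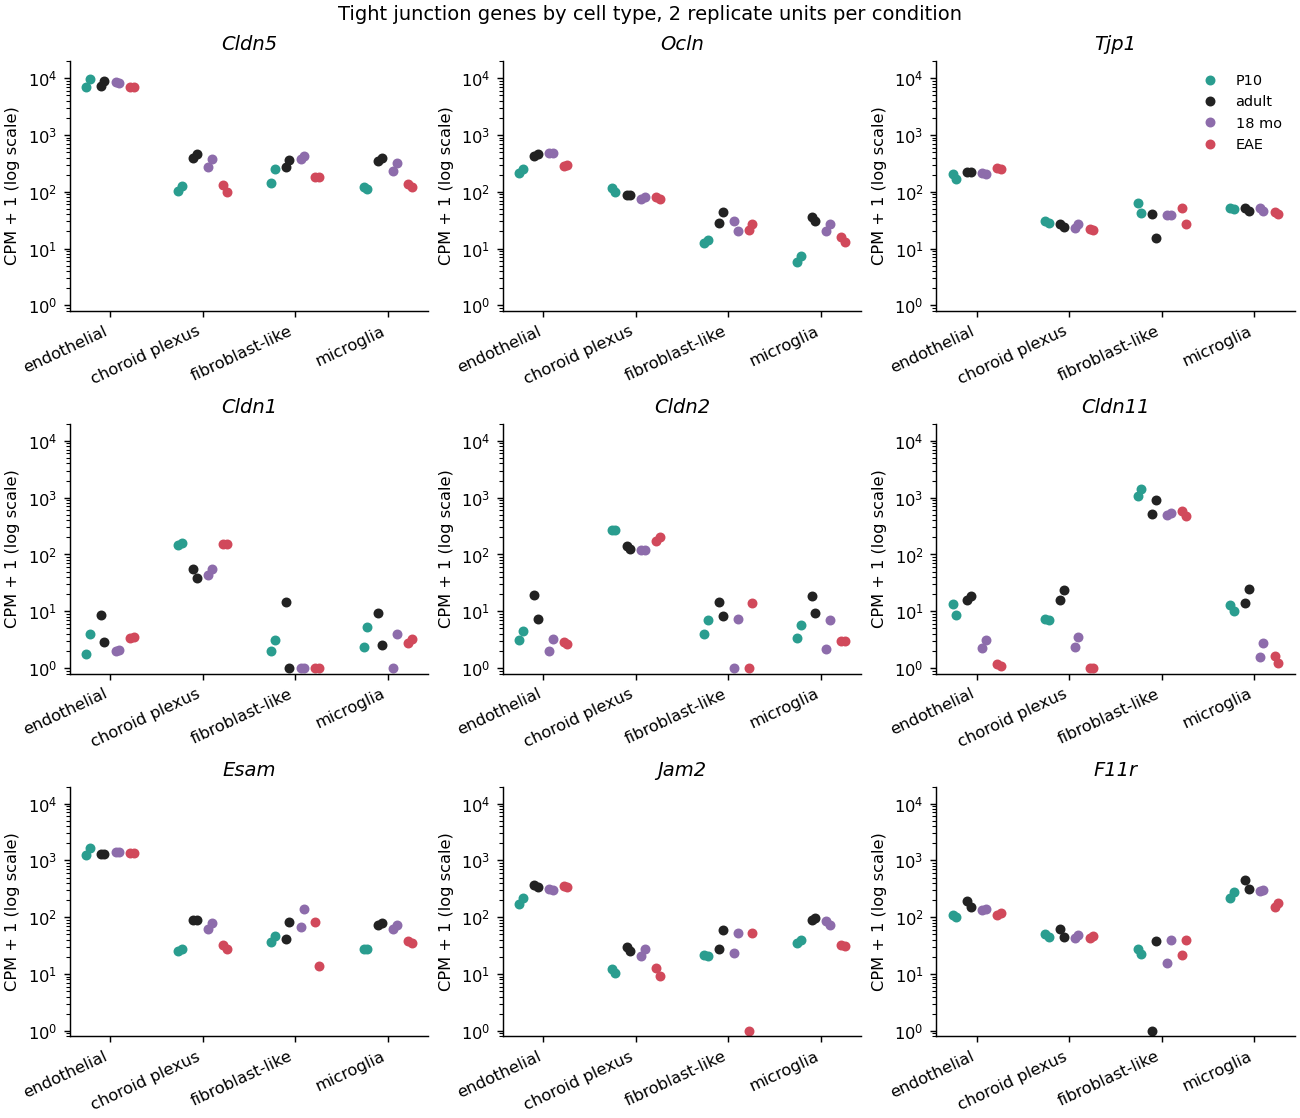
Level of each of the 9 tight junction genes (CPM + 1, log axis) in endothelial cells, choroid plexus epithelium, fibroblast-like cells and microglia, one panel per gene. Each point is 1 of 8 units, coloured by condition. Cldn1 and Cldn2 stand out in choroid plexus epithelium, Cldn11 in fibroblast-like cells, and Cldn5 and Esam in endothelial cells.

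Between ECs and CPE, 8 of the 9 genes passed an adjusted p of 0.05 in edgeR's quasi-likelihood test with the unit as a block, where 73.9% of all 12938 genes tested did so. The share is high throughout, so the count itself says little and the sizes matter. Cldn5 was higher in ECs by 4.77 ± 0.34 on the log2 scale (SE, adjusted p = 1.4e-07) and Esam by 4.40 ± 0.33 (adjusted p = 1.9e-07). Jam2 was higher in ECs by 3.69 ± 0.24 and Tjp1 by 2.65 ± 0.14. Esam is an adhesion molecule of endothelium and platelets, Jam2 a junctional adhesion molecule, and Tjp1 encodes the scaffold ZO-1.

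Ocln and F11r differed less. Ocln, which encodes occludin, had a median of 359 CPM in ECs (210.1 to 487, n = 8) and 83 CPM in CPE (73.2 to 115). These ranges did not overlap, and ECs were higher by 1.51 ± 0.18 on the log2 scale (adjusted p = 1.1e-05). In CPE it stood 2.47 to 23.7 times above microglia, and in ECs 12.2 to 43.4 times. The part of free RNA in the CPE value was not tested. F11r, which encodes JAM-A, was higher in ECs than CPE by 0.96 ± 0.09, but microglia held more of it than either. Microglia had 153 to 450.4 CPM of F11r, ECs 101 to 192 CPM and CPE 42.0 to 61.0 CPM. The EC level was 0.363 to 0.698 times the microglia of the same unit.

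The CPE held 2 claudins that ECs read near the microglia level. Cldn1, a sealing claudin also known from skin, had a median of 101 CPM in CPE (37.8 to 157, n = 8) and 2.17 CPM in ECs (0.794 to 7.61). CPE stood 6.49 to 111 times above microglia in the 7 units with any Cldn1 in microglia, and ECs 0.371 to 1.38 times. Cldn2, a claudin that forms a cation and water pore, had a median of 155 CPM in CPE (119 to 273) and 2.15 CPM in ECs (1.003 to 18.5). CPE stood 7.90 to 116 times above microglia and ECs 0.371 to 1.06 times. Both genes were lower in ECs than in CPE, Cldn1 by a log2 difference of -5.85 ± 0.41 (SE, adjusted p = 1.1e-07) and Cldn2 by -6.23 ± 0.48 (adjusted p = 2.5e-07). In ECs they were at or near the microglia level, and the CPE marker list summed there to 4354 to 52838 CPM, highest in adult library 1.

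Cldn11 marked the fibroblast-like cells. It encodes the claudin of myelin and of arachnoid barrier cells, and oligodendrocytes held the most, 6379 ± 2485 CPM (SD, n = 6). In Fibro the units read 507 and 894 CPM in adult, 492 and 546 at 18 months, 585 and 469 in EAE, and 1070.0 and 1413 at P10. All 8 Fibro units lay at least 38.4 times above microglia. ECs read 0.092 to 17.7 CPM and CPE 0 to 22.2 CPM, which do not overlap the Fibro range. The log2 difference was -7.27 ± 0.82 for ECs less Fibro (adjusted p = 0.00021) and -6.70 ± 0.83 for CPE less Fibro (adjusted p = 0.00024).

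Against Fibro, 7 of 8 genes tested passed in ECs (40.2% of all genes tested did) and 5 of 9 in CPE (52.3%). ECs exceeded Fibro in Cldn5, Ocln, Tjp1, Esam, Jam2 and F11r by 2.41 to 5.13 on the log2 scale, and Cldn1 did not pass the filter on low counts there. CPE exceeded Fibro in Cldn1 (6.99 ± 0.40), Cldn2 (6.18 ± 0.33), Ocln (3.0 ± 0.26) and F11r (1.56 ± 0.25). The Ocln difference was widest at P10, which gave 62 of the 81 Ocln UMIs in Fibro. Mean Ocln at P10 was 106 CPM in CPE and 12.4 in Fibro. In adult, aged and EAE mice it was 86.0, 76.8 and 76.7 CPM in CPE. Fibro read 35.1, 24.5 and 23.1 CPM in the same order, from 8, 7 and 4 UMIs. The value of 3.0 therefore does not describe each condition. Cldn5, Tjp1, Esam and Jam2 did not pass between CPE and Fibro, with log2 differences of -0.20 to 0.42. Cldn5 passed there without a filter on low counts (0.58), with totals without Ttr and mitochondrial genes (0.43), and without P10 library 2 (0.54) or 4 (0.47). In Fibro, Ocln, Tjp1 and Jam2 read no more than 62.6 CPM in any unit.

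The 4 claudins that separate the cell types are shown with the bases before their start sites. Coordinates are of GRCm38 (mm10), and gene spans come from GENCODE vM21. Cldn5 spans chr16:18776847-18778262 on the plus strand, Cldn1 chr16:26356642-26371841 on the minus strand, Cldn2 chrX:139800828-139811386 on the plus strand and Cldn11 chr3:31149920-31164324 on the plus strand. None of the 4 overlaps another annotated gene. The windows, from RefSeq on GRCm38.p6, run from 160 to 11 bases before the annotated start on the gene's own strand, upstream of the transcript. Capitals mark 3 promoter motifs searched on both strands. They are TATAAA, the letters CCAAT or on the other strand ATTGG, and the letters GGGCGG or on the other strand CCGCCC, none of which overlap here.
Cldn5, chr16:18776687-18776836, plus strand: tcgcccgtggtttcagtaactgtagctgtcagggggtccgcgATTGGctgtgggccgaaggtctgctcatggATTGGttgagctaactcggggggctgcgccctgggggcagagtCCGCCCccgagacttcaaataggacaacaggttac
Cldn1, chr16:26371850-26371999, minus strand: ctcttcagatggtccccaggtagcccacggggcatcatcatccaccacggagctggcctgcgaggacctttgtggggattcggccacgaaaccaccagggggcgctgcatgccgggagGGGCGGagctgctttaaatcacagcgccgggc
Cldn2, chrX:139800648-139800797, plus strand: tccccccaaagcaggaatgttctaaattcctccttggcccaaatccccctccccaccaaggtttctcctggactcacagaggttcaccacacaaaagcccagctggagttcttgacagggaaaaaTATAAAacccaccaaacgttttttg
Cldn11, chr3:31149760-31149909, plus strand: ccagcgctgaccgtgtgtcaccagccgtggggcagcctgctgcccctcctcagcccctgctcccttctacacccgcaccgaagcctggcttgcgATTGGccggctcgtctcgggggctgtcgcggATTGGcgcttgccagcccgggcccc

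The windows differ in base composition, from 48.7% G and C in Cldn2 through 60.7% in Cldn5 and 65.3% in Cldn1 to 72% in Cldn11. Cldn2 was alone among the 7 matched members in holding TATAAA, 35 bases before the start, a run found on either strand in 7.69% of all 32851 RefSeq windows of that length. Cldn5 held CCAAT 118 and 88 bases before the start and GGGCGG at 45, and Cldn11 held CCAAT at 66 and 35. CCAAT was in 24.7% and GGGCGG in 27.6% of all windows. These matches describe letters only and no binding was measured. Esam and Jam2 had no window in the table.

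Within ECs, arterial and venous cells were set apart by subclustering after the libraries were aligned, again without junction genes. There were 721 arterial and 2290 venous cells, and 6179 cells in 2 clusters with capillary markers. The larger of these, with 4286 cells, was led by the haemoglobin genes Hba-a1, Hba-a2, Hbb-bt and Hbb-bs and held 1 capillary marker, Car4, among its top 10 genes by fold. The rest of the 21162 ECs lay in clusters given no segment name, the largest with 3504, 3388 and 2976 cells. The one of 3388 cells had 5 arterial markers among its leading genes, so the arterial and venous cells compared are a part of the ECs. F11r and Esam, 2 of the 6 genes tested, passed between arterial and venous cells, where 26.1% of all genes tested did. F11r was higher in arteries by 0.57 ± 0.10 on the log2 scale (SE, adjusted p = 0.00025), with medians of 176 CPM in arteries (122 to 229, n = 8) and 116 CPM in veins (84.2 to 183). Arterial F11r was the higher in every one of the 8 units, though the ranges overlapped. Esam was lower in arteries, with a log2 difference of -0.43 ± 0.13 (adjusted p = 0.015) and medians of 887 CPM (744 to 1260) against 1241 CPM (947 to 1504). The Esam difference no longer passed without aged library 2 (log2 difference -0.39).

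The 2 clusters with capillary markers together read 8963 ± 1088 CPM of Cldn5 (SD, n = 8) and 1548 ± 172 CPM of Esam, given as values with no test. A cluster of 613 cells led by Plvap, the diaphragm protein of fenestrated vessels, read 5228 ± 1964 CPM of Cldn5 and 1094 ± 178 CPM of Esam. Its Cldn5 ranged from 928 to 7483 CPM over the 8 units.

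With age and disease, Cldn5 and Esam in ECs did not pass in any contrast, while Ocln and F11r were lower at P10 and in EAE. Cldn5 read 6895 and 9503 CPM at P10, 7320.2 and 8895 in adult, 8516 and 8308 at 18 months, and 7016 and 6934 in EAE. All 4 pairs lay within the P10 range. Its log2 difference from adult was 0.14 ± 0.20 at P10, 0.04 ± 0.20 at 18 months and -0.06 ± 0.20 in EAE (SE), and none passed. Esam read 1263 and 1638, 1308 and 1308, 1419.7 and 1409, and 1372 and 1348 CPM in the same order. Different clusters held the ECs of each condition, chiefly cluster 6 at P10, 2, 0 and 14 in adult (14 nearly all from adult library 1), 0 at 18 months, and 0 and 4 in EAE, although the junction genes took no part in forming them.

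At P10 4 of the 9 genes passed in ECs, all lower than in adult, where 35.4% of all 14170 genes tested passed. Ocln read 210.1 and 248 CPM at P10 against 428 and 461 in adult. The units did not overlap, and the log2 difference was -0.84 ± 0.13 (SE, adjusted p = 0.00077). Jam2 read 171 and 218 CPM against 373 and 342, a log2 difference of -0.76 ± 0.14 (adjusted p = 0.0028). F11r read 106 and 101 CPM against 192 and 151, a difference of -0.60 ± 0.13 (adjusted p = 0.0045). Cldn2 also passed (-1.93 ± 0.55), but at 2.08 and 3.45 CPM against 18.5 and 6.35 it lay near the microglia level in all 4 units. Without adult library 1, Cldn2 no longer passed, while Ocln (-0.93), Jam2 (-0.74) and F11r (-0.47) did. The endothelial marker list was also lower in ECs at P10 (12662 to 16380 CPM) than in adult (23454 to 24875 CPM). Its part in the result was not tested.

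At 18 months 2 of 9 genes passed in ECs, Cldn2 and Cldn11, where 3.69% of all genes tested passed. Cldn2 read 1.003 and 2.22 CPM against 18.5 and 6.35 in adult. Microglia read 1.19 and 5.97 CPM of it at 18 months and 17.5 and 8.25 in adult. The CPE marker list in ECs summed to 7080 to 9524 CPM at 18 months and 21279 to 52838 in adult, and its part was not tested. Cldn11 read 1.25 and 2.09 CPM against 14.7 and 17.7 in adult (log2 difference -3.29 ± 0.33, adjusted p = 0.0020). It fell alike in microglia, to 0.593 and 1.79 CPM from 12.9 and 23.2. In ECs the oligodendrocyte list, 9 genes, summed to 469 to 475 CPM at 18 months and 481 to 497 in adult. In microglia it summed to 174 to 195 CPM at 18 months and 301 to 399 in adult. The aged libraries held 13 and 15 oligodendrocytes, and the adult libraries 35, 68 and 61. The part of oligodendrocyte RNA in the result was not tested. The 5 strand, adhesion and scaffold genes Cldn5, Ocln, Tjp1, Esam and Jam2 differed by -0.23 to 0.11 on the log2 scale, and none passed. F11r read 132 and 138 CPM at 18 months against 151 and 192 in adult and did not pass either. In edgeR's test 4 of the 9 members had an unadjusted p under 0.05. With the 2 aged libraries summed to 1 unit, as were the EAE ones, no member passed. Cldn2 was also lost without either aged or either EAE library (log2 values of -3.48 to -2.38) and read -1.97, still called, without adult library 1 (-2.86 with all libraries), and Cldn11 was lost without aged library 1 (-2.95).

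In EAE 5 of 9 genes passed in ECs, where 23.9% of all genes tested did. Ocln read 284 and 289.6 CPM against 428 and 461 in adult. The log2 difference was -0.48 ± 0.13 (SE, adjusted p = 0.023), smaller than at P10. Tjp1 read 256 and 255 CPM against 222 and 219.9, higher by 0.37 ± 0.10 (adjusted p = 0.029). This difference rests on totals rescaled by TMM, and the Tjp1 values in CPM, on plain totals, differ by less than that. F11r read 107 and 117 CPM against 192 and 151, a log2 difference of -0.45 ± 0.13 (adjusted p = 0.028). Units of the 2 conditions did not overlap in any of the 3 genes, but these were picked by the call. With 2 units against 2 this adds little, and the share of all genes without overlap was not counted.

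These EAE differences in ECs were close to the threshold. With the EAE and the aged libraries each summed to 1 unit, only Cldn11 passed. Ocln, Tjp1 and F11r were lost when either EAE or either aged library was left out, with log2 values of -0.48 to -0.43, 0.38 to 0.42 and -0.50 to -0.38, and F11r also without adult library 1 (-0.25). Cldn2 (-2.56 ± 0.58) and Cldn11 passed at or near the microglia level, and Cldn2 was lost without either EAE library (-2.66 and -2.47). Without adult library 1, which read 18.5 CPM of Cldn2 against 6.10 and 6.61 in libraries 2 and 3, the log2 difference was -1.66 and still passed. Cldn11 had 3 UMIs in EAE ECs against 321 in adult, a ratio of 126 with a counting interval of 42.7 to 613 (95%, counting error only), while the oligodendrocyte list was higher in EAE ECs (981 to 993 CPM against 481 to 497). Of its 9 genes, Mog was at 0 in both EAE units and Opalin in 1, and none was at 0 in adult ECs. In microglia the list was lower in EAE (135 to 147 CPM against 301 to 399), and in CPE too (51.8 to 54.3 CPM against 199 to 274). The EAE libraries held 5 and 3 oligodendrocytes, and the adult libraries 35, 68 and 61. The part of oligodendrocyte RNA in the result was not tested.

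**Figure D2:**
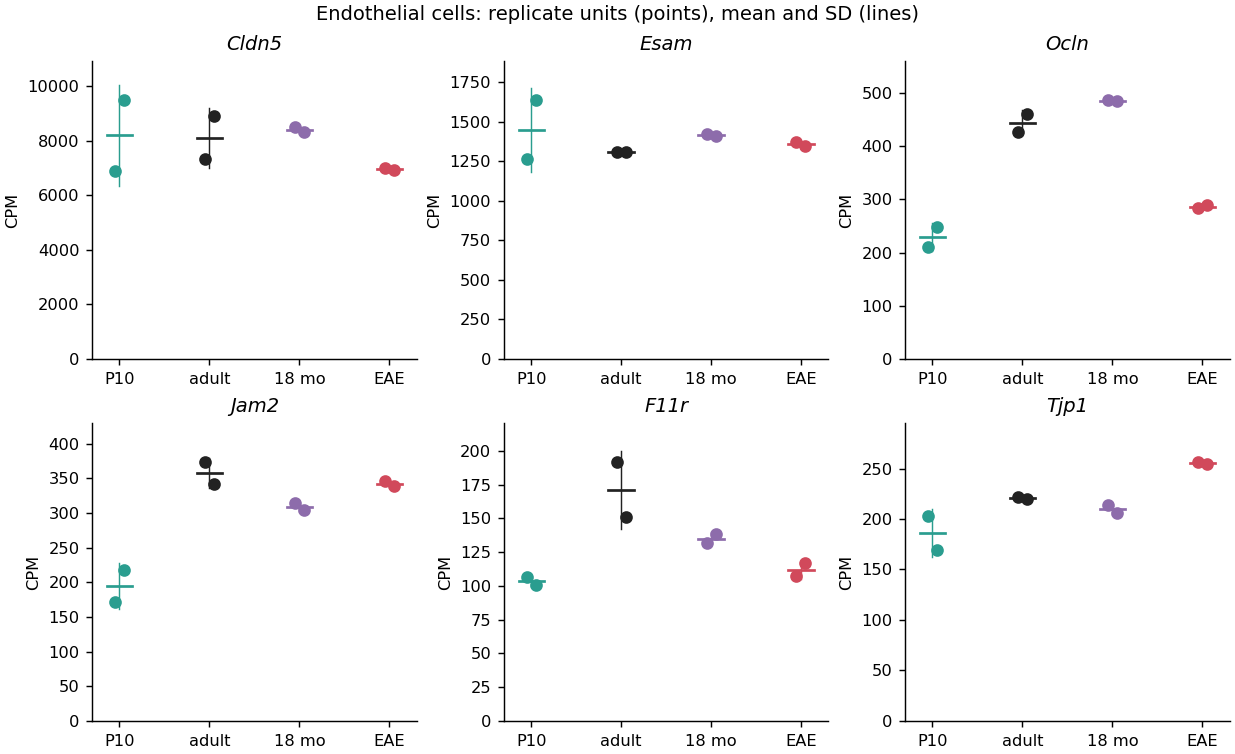
CPM of Cldn5, Esam, Ocln, Jam2, F11r and Tjp1 in endothelial cells by condition. Points are units, 2 in each condition, and bars give the mean and SD. Both P10 and both EAE units lie below both adult units for Ocln and F11r, both P10 units lie below for Jam2. For Cldn5 the P10 units span the other conditions, and both EAE units lie below both adult units, a difference that did not pass.

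In CPE the 2 claudins of its own barrier were higher at P10. Cldn1 read 146 and 157 CPM at P10 against 54.4 and 37.8 in adult, and Cldn2 273 and 267 CPM against 138 and 123. Neither pair overlapped. Cldn1 was higher by 1.57 ± 0.15 on the log2 scale (SE, adjusted p = 5.4e-07) and Cldn2 by 0.89 ± 0.13 (adjusted p = 3.5e-05). In all, 6 of the 9 genes passed, where 51.0% of all 12882 genes tested did. Ocln read 115 and 97.9 CPM against 86.3 and 85.6 and did not pass (0.14 ± 0.13).

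The P10 and adult cells lay mostly in different clusters. Of the P10 CPE, 1714 cells lay in cluster 10, which held 22 adult cells, and 321 lay in cluster 3 with 2597 adult cells. Within cluster 3, Cldn1 read 21.6 and 20.3 CPM at P10, from 1 and 20 UMIs, and 25.2 and 13.5 in adult. Cldn2 read 43.2 and 86.3 CPM at P10 there and 100.2 and 82.9 in adult. In cluster 10 the P10 units read 148 and 168 CPM of Cldn1 and 276 and 281 CPM of Cldn2. The 15 cells of adult library 1 in cluster 10 read 55.6 CPM of Cldn1, from 6 UMIs, and 176 CPM of Cldn2, from 19 UMIs. Adult libraries 2 and 3 added 2 and 5 cells of cluster 10, too few for a unit value. Over all 22 adult cells there, Cldn1 read 99.5 CPM, from 18 UMIs, and Cldn2 221 CPM, from 40 UMIs, above library 1 alone. So no direction between P10 and adult is given for cluster 10, and in cluster 3 the 2 conditions overlapped. Cells of cluster 10 had a median of 9341 UMIs and those of cluster 3 a median of 4008. The part of depth in the P10 difference over all CPE was not tested.

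Cldn1 was also higher in EAE CPE. It read 151 CPM in each EAE unit against 54.4 and 37.8 in adult, a log2 difference of 1.59 ± 0.15 (adjusted p = 2.2e-06). Of all genes tested in this contrast 31.4% passed, and 6 of the 9 members. The difference was present within clusters. In cluster 3 Cldn1 read 65.4 and 55.7 CPM in EAE against 25.2 and 13.5 in adult, and in cluster 16 it read 168 and 177 against 118 and 119.6. Without cluster 16, an alternative added after seeing the data, the log2 difference was 1.93.

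The Cldn2 difference in EAE CPE changed with the clusters included. It read 172 and 201 CPM against 138 and 123 in adult, a log2 difference of 0.39 ± 0.13 (adjusted p = 0.029). Within cluster 3 it read 98.2 and 70.8 CPM in EAE and 100.2 and 82.9 in adult, and within cluster 16 it read 188 and 239.9 against 220.4 and 260.03. Without cluster 16 the log2 difference was 0.0061. Cluster 16 cells, with a median of 18130 UMIs, made up 471 of the 913 EAE and 252 of the 2871 adult CPE cells. The call was also lost without adult library 3 (0.34), aged library 2 (0.39), EAE library 1 (0.50) or EAE library 2 (0.28), and with the aged and EAE libraries each summed to 1 unit (0.41).

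**Figure D3:**
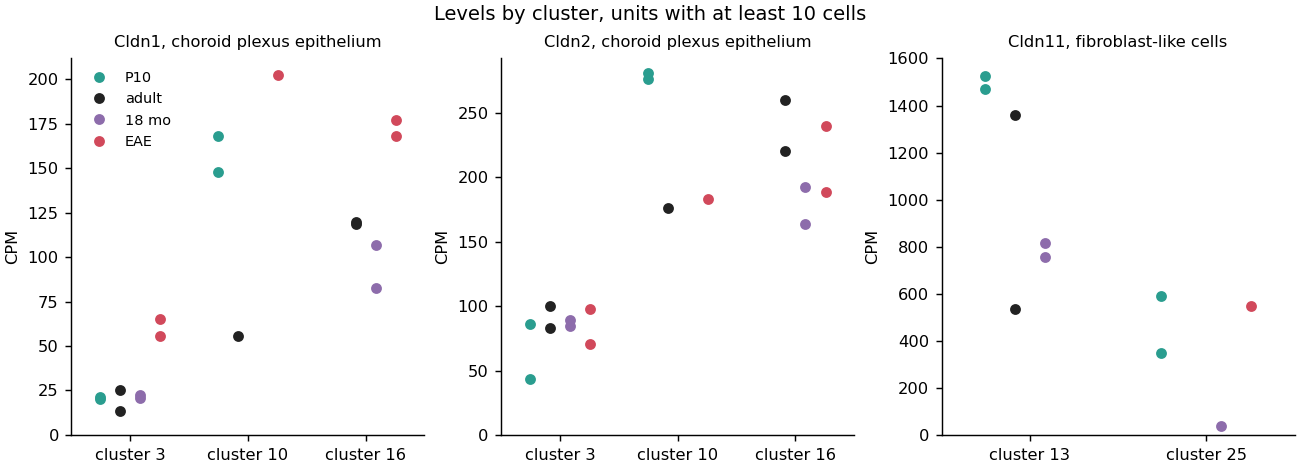
CPM of Cldn1 and Cldn2 in choroid plexus epithelium clusters 3, 10 and 16 and of Cldn11 in fibroblast-like clusters 13 and 25, by condition. Each point is 1 unit with at least 10 cells of the cluster. Cldn1 in EAE lies above adult within clusters 3 and 16, whereas Cldn2 in EAE overlaps adult within both.

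Cldn5, Esam and Jam2, members with their highest level in ECs, were lower in CPE at P10 and in EAE, and they were lower in microglia too. Cldn5 in CPE read 391 and 465 CPM in adult, 277 and 369 at 18 months, 129 and 97.8 in EAE, and 104 and 124 at P10. Microglia read 352 and 397, 234 and 321, 137 and 122, and 119 and 109 CPM in the same order. Esam in CPE stood at 0.786 to 1.22 times and Jam2 at 0.227 to 0.379 times the microglia of the same unit. Microglia held more Jam2 (mean 59.6 CPM) than the other immune cell types found (means of 15.7 to 31.3 CPM). Cldn5, Esam and Jam2 passed in CPE at P10 (log2 differences of -2.07, -1.95 and -1.54) and in EAE (-2.05, -1.72 and -1.53). The endothelial list in CPE fell with them, from 1934 to 1959 CPM in adult to 779 to 785 at P10 and 869 to 958 in EAE. By cluster, Cldn5 read 192 and 131 CPM in EAE against 416 and 487 in adult in cluster 3. In cluster 16 it read 104 and 88.6 CPM in EAE against 335 and 390 in adult.

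The difference between the change in CPE and that in microglia was tested directly, as a comparison added after seeing the data. At P10 25.4% of all genes tested passed it, and Cldn5 (-0.36 ± 0.22, adjusted p = 0.23), Esam (-0.46 ± 0.22, adjusted p = 0.12) and Jam2 (-0.19 ± 0.26, adjusted p = 0.62) did not. Ocln (2.67 ± 0.29), Cldn1 (2.47 ± 0.75) and Cldn2 (2.77 ± 0.46) did, higher in CPE. In EAE, where 17.2% passed, Cldn1 (2.68 ± 0.79) and Cldn2 (2.86 ± 0.50) again passed, higher in CPE. Ocln (0.77 ± 0.27) and F11r (0.66 ± 0.21) also passed, and Cldn5 (-0.71 ± 0.22) and Esam (-0.83 ± 0.22) passed in the other direction. Ocln and F11r did not rise in CPE itself. Their EAE and adult means there were 76.7 and 86.0 CPM for Ocln and 44.0 and 52.3 CPM for F11r, neither called. At 18 months 0.491% of all genes passed and no member did in edgeR, with Cldn2 alone at an unadjusted p under 0.05. These differences include the change in microglia, which read 17.5 CPM of Cldn2 in adult library 1 and 1.19 to 8.25 CPM in the other 7 units. Microglia read 35.0 and 29.2 CPM of Ocln in adult, 4.84 and 6.42 at P10, and 15.1 and 12.1 in EAE. Their F11r was 450.4 and 312 CPM in adult and 153 and 174 in EAE. Their Cldn1 was 8.37 CPM in adult library 1, from 11 UMIs, and rested on 2 UMIs in the other adult unit. No alternative setting was run for this comparison.

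Cldn11 in CPE read 14.7 and 22.2 CPM in adult, 1.39 and 2.51 at 18 months, 0 in both EAE units, and 6.26 and 5.97 at P10. At 18 months it was the sole member to pass in CPE (-3.23 ± 0.39, adjusted p = 0.00049), where 1.44% of all genes tested passed. EAE CPE had 0 UMIs against 373 in adult, at least 67.9-fold lower with a floor of 3 UMIs over the group. The oligodendrocyte list in CPE summed to 199 to 274 CPM in adult, 62 to 81.6 at 18 months, 51.8 to 54.3 in EAE and 50.5 to 83.3 at P10, with 2 of 9 genes at 0 in EAE. Its part in the Cldn11 values was not tested.

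Tjp1 and F11r in CPE did not pass at any age or in EAE. F11r at P10 (log2 difference -0.34, adjusted p = 0.051) was near the threshold and passed with RLE size factors, with 11 libraries as replicates, with totals without Ttr and mitochondrial genes, and without adult library 2, adult library 3 or P10 library 2. Tjp1 read 20.3 to 29.9 CPM over the 8 units, below the microglia of every unit, and F11r read 42.0 to 61.0 CPM. Microglia held more Tjp1 (mean 46.5 CPM) than the other immune cell types found (means of 12.5 to 17.8 CPM). The CPE mean of 24.5 CPM lay between them.

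**Figure D4:**
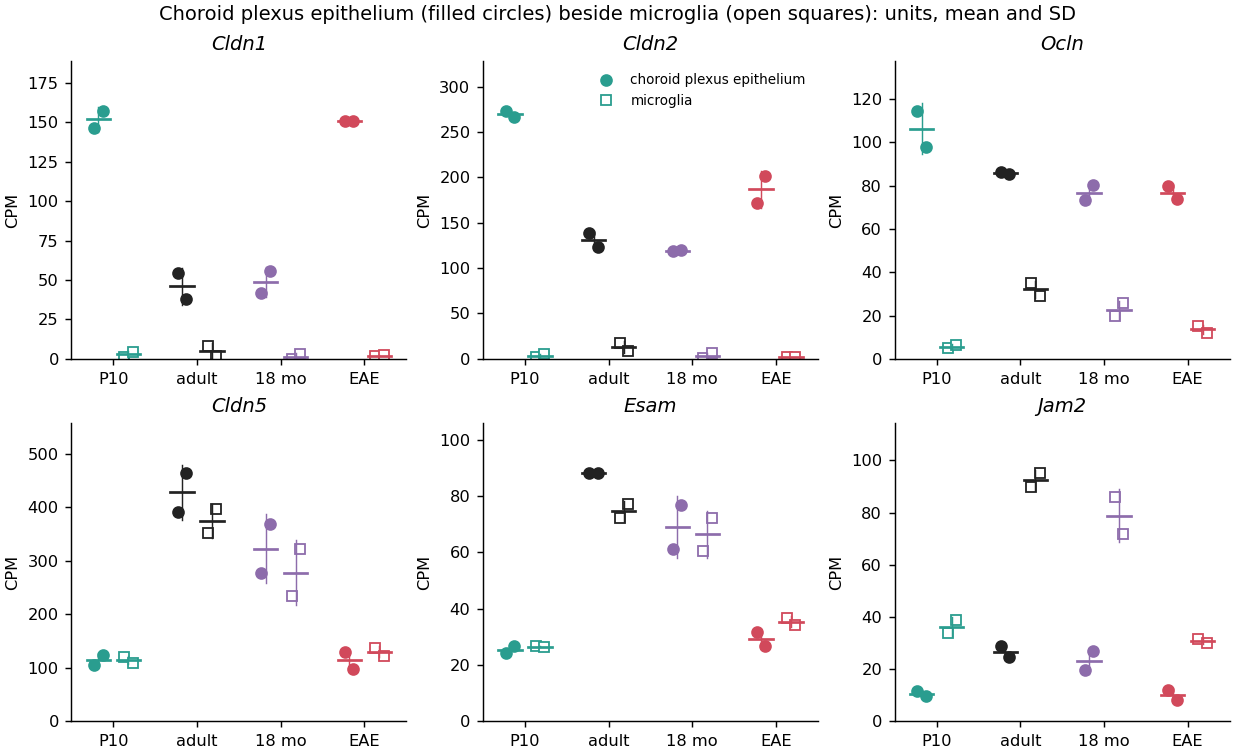
CPM of Cldn1, Cldn2, Ocln, Cldn5, Esam and Jam2 by condition in choroid plexus epithelium (filled circles) and microglia (open squares). Each symbol is a unit, 2 in each condition, and bars give the mean and SD. Cldn1 and Cldn2 lie well above microglia, and Cldn5 and Esam fall at P10 and in EAE in both cell types.

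The change from adult differed between ECs and CPE in several genes by the test of the difference itself. At P10 39.4% of all genes tested passed it and 7 of 9 members did. Esam differed by 2.16 ± 0.17 and Cldn5 by 2.11 ± 0.16, as EC less CPE on the log2 scale, and for both the CPE side lay at the microglia level. Cldn2 (-2.67 ± 0.64) and Cldn1 (-2.37 ± 0.68) also passed, with the EC side at or near the microglia level. Both lost the call without either EAE library (adjusted p of 0.066 for Cldn2 and 0.11 for Cldn1) and with the aged and EAE libraries each summed (0.054 and 0.19). Cldn1 also lost it without either aged library, and Cldn2 without doublets. Without adult library 1 Cldn2 read -2.03 and Cldn1 -1.70, and both still passed. Cldn11 (adjusted p = 0.12) and Jam2 (adjusted p = 0.053) were not called by DESeq2. Both sides of Cldn11 lay near the microglia level, and the CPE side of Jam2 lay below it. Ocln differed by -1.06 ± 0.18 (adjusted p = 2.6e-05), as it was lower at P10 in ECs and not in CPE. In EAE 16.4% of all genes passed, and of the members Cldn5 (1.93), Esam (1.87), Jam2 (1.57) and Tjp1 (0.66 ± 0.18). Here too the CPE side of Cldn5 and Esam lay at the microglia level, and that of Jam2 and Tjp1 lay below it. Tjp1 was lost without either EAE library (0.70 and 0.63) and with the aged and EAE libraries each summed (0.70). At 18 months 1.04% passed and no member did in edgeR, while 3 members, Cldn5, Cldn2 and Esam, had an unadjusted p under 0.05 and DESeq2 called 1.

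**Figure D5:**
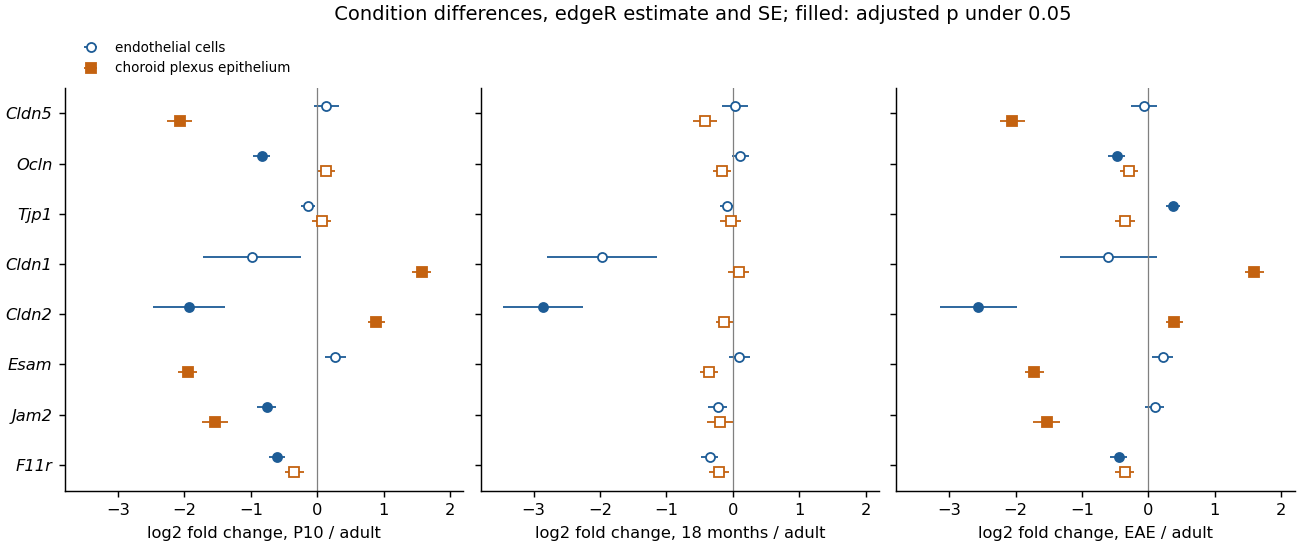
Log2 fold change from adult of 8 tight junction genes in endothelial cells and choroid plexus epithelium at P10, 18 months and in EAE. Lines give the standard error, and filled symbols have an adjusted p under 0.05. Ocln at P10 is lower in endothelial cells and not in choroid plexus epithelium, and Cldn1 is higher in choroid plexus epithelium at P10 and in EAE.

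In Fibro, Cldn5, Cldn11 and Esam alone passed the filter on low counts, and none was called in any contrast by edgeR or DESeq2, with Cldn11 at P10 the 1 case of an unadjusted p under 0.05. Of all 3171 genes tested, 0.189% passed at P10, 0% at 18 months and 0.851% in EAE. The adult, aged and EAE units held 18 to 40 cells each and the P10 units 329 and 664, and how large a change could be detected in them was not measured. Cldn11 differed from adult by 0.78 ± 0.30 on the log2 scale at P10, -0.47 ± 0.31 at 18 months and -0.36 ± 0.31 in EAE (SE), with adjusted p of 0.27, 0.76 and 0.61. The P10 value ran from 0.44 without adult library 3 to 1.52 without adult library 2, and the adult unit of 894 CPM sums these libraries, at 1305 CPM in library 2 and 328 CPM in library 3. At 18 months no gene passed in edgeR, while 205 had an unadjusted p under 0.05 and DESeq2 called 8.

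Cldn11 also differed between the Fibro clusters. Cluster 13 read 535 and 1358 CPM in adult, 814 and 756 at 18 months, and 1470 and 1527 at P10. Cluster 25 read 346 and 591 CPM at P10 and 36.0 CPM in the 1 aged unit with enough cells, from 2 UMIs. In EAE, over both units, cluster 13 (16 cells) read 662 CPM and cluster 25 (22 cells) 448 CPM. At P10 both units of cluster 13 lay above both of cluster 25.

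Shares of cells with at least 1 UMI, after thinning each cell to 1500 UMIs, were read beside microglia. Cldn5 was read in 97.5% to 99.9% of ECs, in 13.1% to 50.1% of CPE cells and in 15.3% to 40.7% of microglia. Esam was read in 82.1% to 90.5% of ECs and 3.47% to 10.7% of microglia, and Ocln in 28.5% to 52.6% of ECs and 0.805% to 5.92% of microglia. In CPE, Cldn2 was read in 11.6% to 32.2% of cells, against 0.190% to 3.29% of microglia. Cldn1 was read in 2.44% to 21.1% of CPE cells and 0% to 1.32% of microglia. Cldn11 was read in 44.8% to 76.3% of Fibro and 0% to 2.74% of microglia. Without thinning, Cldn5 was read in 98.9% to 99.97% of ECs and Cldn2 in 34.1% to 82.9% of CPE cells.

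The other genes of tight and adherens junctions were read from a list of 59, of which 56 were in the files. Between ECs and CPE 17 of 43 tested were higher in ECs and 20 higher in CPE, where 73.9% of all genes tested passed in either direction. The median log2 difference was -0.23. Pecam1, the endothelial adhesion molecule PECAM-1, had 673 ± 119 CPM in ECs and 21.6 ± 10.5 in CPE (SD, n = 8). Cdh5, the endothelial cadherin, and Lsr, a protein of junctions where 3 cells meet, were also higher in ECs. CPE was higher in Tjp3 (ZO-3), in the polarity gene Crb3 with 79.8 ± 9.62 CPM against 2.42 ± 1.98, and in the claudin Cldn3 with 27.2 ± 6.93 against 0.751 ± 0.581. All 5 further claudins tested were higher in CPE than ECs.

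Fibro held the cadherins Cdh11 (281 ± 83.1 CPM, SD, n = 8) and Cdh1 (75.9 ± 45.2), and both were higher there than in ECs and CPE. Against Fibro, ECs were higher in 16 and lower in 7 of 34 genes (40.2% of all genes passed), and CPE higher in 18 and lower in 10 of 44 (52.3%). Between arterial and venous cells 4 of 23 were higher in arteries and 6 in veins, against 26.1% of all genes. Pecam1 was higher in arteries by 0.90 ± 0.12 on the log2 scale, and Cgnl1, which encodes paracingulin, by 0.82 ± 0.15.

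In ECs at P10, 13 of 42 other junction genes were higher than in adult and 12 lower, where 35.4% of all genes tested passed in either direction. The cadherins Cdh11 (37.3 ± 2.503 against 1.21 ± 0.591 CPM, SD, n = 2 each) and Cdh2 (77.1 ± 14.8 against 15.965 ± 2.60) and the nectin Pvrl2 (103 ± 17.3 against 17.1 ± 3.39) were higher. Ctnnb1, which encodes beta-catenin, and Lsr were lower. In EAE 5 were higher and 8 lower, against 23.9% of all genes. Pard3, a polarity gene, rose from 38.6 ± 2.29 to 77.7 ± 3.06 CPM, and Ctnnb1 fell from 272 ± 73.7 to 44.4 ± 7.44 CPM. Lsr had a log2 difference of -0.87 ± 0.20 in EAE and -0.73 ± 0.20 at P10. At 18 months none was higher and 2 were lower, against 3.69% of all genes.

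In CPE at P10, 24 of 47 other junction genes were higher and 7 lower, where 51.0% of all genes tested passed in either direction. The median log2 difference was 0.39, whereas that of all genes tested was near 0. Scaffold and polarity genes had 11 of 19 higher and 2 lower. Amotl2, an angiomotin-like scaffold, had 49.8 ± 5.19 CPM against 17.4 ± 1.79 in adult, and Cxadr, the coxsackie and adenovirus receptor, 77.5 ± 1.68 against 29.7 ± 7.13. In EAE, where 31.4% of all genes passed, 10 were higher, among them Cgn (cingulin) and Cgnl1, and 4 were lower, among them Pecam1 and Cdh5. Pecam1 and Cdh5 are endothelial genes and were lower in CPE at P10 too, together with the endothelial list. At 18 months 1 was higher and 1 lower, against 1.44% of all genes. In Fibro none of 13 tested passed in any contrast.

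The genes whose levels were most like each member were found by Pearson correlation over 73 populations of 14 cell types, as a description. They share libraries and free RNA and carry no test. For Cldn5 they were Spock2 (r = 0.97), Ptprb and Sox18, for Esam Foxf2 (0.96), Emcn and Tbx3, and for Ocln Arl4a (0.91), Dock9 and Cmtm8. For Cldn1 they were Tmem72 (0.96), Slc4a5 and Atp2b3, for Cldn2 Wipf3 (0.96), Steap2 and Htr2c, and for Cldn11 Tmeff2 (0.93), Spock3 and Hhip. Jam2 (Eogt, 0.84), Tjp1 (Apbb2, 0.88) and F11r (Ecscr, 0.77) had looser likenesses.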

How the data were processed

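The deposited tables hold UMI counts per gene and cell barcode, 1 table per library, which the authors made, per the labels, with bcl2fastq 2.19.1.403, UMI-tools 0.5.3, STAR 2.5.3a and featureCounts 1.6.1 on mm10. The paper's methods name later versions of UMI-tools, STAR and featureCounts, and which were used is not settled here. The setting for strand is not given in the sources used here, so reads of overlapping genes may mix; this touches Tjp1 (3 overlapping gene models) and Jam2 (1).

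Cells with over 500 and under 6000 genes and under 25% mitochondrial counts were kept. Seurat 5.3.0 clustered them on 2000 variable genes without junction genes (12 principal components, resolution 0.5), and clusters were named from marker lists; 490 cells of mixed or unclear clusters were set aside. The members and all lists were chosen with earlier results of these data known. scanpy 1.11.5 marked 764 cells (1.51%) as doublets, which were kept and left out as an alternative. It marked only 0.0785% and 0.105% in the aged libraries, so it may not have worked there, which was not tested. Library pairs shared 10 to 113 cell barcodes.

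UMIs were summed per unit and cell type (at least 10 cells) and tested with edgeR 4.0.16 (quasi-likelihood, TMM, filterByExpr, robust), 1 fit per cell type over the 4 conditions, in R 4.3.3, with Benjamini-Hochberg adjustment over all genes and a threshold of 0.05. Comparisons of cell types had the unit as a block. On simulated counts for ECs at P10 against adult (13769 genes, 200 changed by 1 on the log2 scale) the test found 85% of the changed genes, with 5.03% of its calls false. An exact permutation test of 2 units against 2 cannot go below p = 0.333. Where the labels name no separate animals for each library, p-values measure only the spread between units. Beside the 9 members, at most 3 other junction genes were named per direction and comparison, those called with the largest fold change and at least 20 CPM. Alternatives were DESeq2 1.42.0, RLE size factors, no filter on low counts, the 11 libraries as replicates, aged and EAE libraries each summed, a replicate block, resolution 0.9, totals without Ttr and mitochondrial genes, and leaving out each library.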

Additional observations from a re-analysis of the deposited data

Results flagged for a closer look

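The change from adult differed between cell types in several members, by edgeR's test of the difference itself with the unit as a block. Between ECs and CPE at P10, the difference on the log2 scale (EC less CPE) was 2.11 for Cldn5, -1.06 for Ocln, -2.37 for Cldn1, -2.67 for Cldn2, 1.04 for Cldn11, 2.16 for Esam and 0.75 for Jam2. In EAE it was 1.93 for Cldn5, 0.66 for Tjp1, 1.87 for Esam and 1.57 for Jam2. At P10 and in EAE the CPE side of Cldn5 and Esam lay at the microglia level, and that of Jam2 and Tjp1 below it. The EC side of Cldn1 and Cldn2 and both sides of Cldn11 lay at or near the microglia level. The P10 calls of Cldn1, Cldn2, Cldn11 and Jam2 and the EAE call of Tjp1 were each lost under at least 1 alternative.

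Between CPE and microglia at P10, the difference (CPE less microglia) was 2.67 for Ocln, 2.47 for Cldn1 and 2.77 for Cldn2. In EAE it was -0.71 for Cldn5, 0.77 for Ocln, 2.68 for Cldn1, 2.86 for Cldn2, -0.83 for Esam and 0.66 for F11r. Mean Ocln and F11r were not higher in EAE CPE than in adult CPE, and both were lower in EAE microglia than in adult microglia.

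Whether 1 of the 4 P10 libraries stood apart from the other 3 could not be judged, since these libraries formed 2 close pairs.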

How the results depend on the processing

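Of 2407 fold changes of the members under an alternative, 2277 kept their direction and their side of the threshold, 53 lost and 41 gained a call, and 36 changed sign, none of them called. The aged and EAE libraries each summed to 1 unit left 0 members called in ECs at 18 months (2 otherwise), 1 in EAE (5 otherwise) and 1 between arterial and venous cells (2 otherwise). Without doublets ECs had 1 at 18 months, and without a filter on low counts 3 in EAE. The difference of change between ECs and CPE at 18 months had 1 called by DESeq2 and 3 without a filter, against 0. The causes were not tested. Leaving out each library gave 3 to 5 calls in ECs at P10, 0 to 2 at 18 months and 1 to 5 in EAE, 1 to 2 between arterial and venous cells, and for the difference of change 5 to 8 at P10, 0 to 1 at 18 months and 3 to 6 in EAE.

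Same-numbered libraries did not deviate together (r of -0.175 to 0.0932 over 13 pairs), so the numbers do not pair them. With a replicate block, Cldn11 in ECs at P10 (-0.54), Ocln (-0.34) and F11r (-0.37) in CPE in EAE gained a call, and Cldn5 in ECs read -0.061 at P10 and 0.032 in EAE.

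Signs turned in the following values. Cldn5 in ECs in EAE read 0.011 with summed libraries and 0.0086 without a filter. Tjp1 between CPE and Fibro read 0.017 with DESeq2, 0.025 with RLE size factors, 0.15 without a filter, and 0.030 with totals without Ttr and mitochondrial genes. Tjp1 between arteries and veins read 0.018 with 11 libraries. In the difference of change between ECs and CPE at 18 months, Cldn11 read 0.027 with 11 libraries and 0.048 without Ttr and mitochondrial genes, and Jam2 read 0.023 in the latter. Cldn5 in Fibro at 18 months read -0.75 without cluster 25, an alternative added after seeing the data.

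Leaving out 1 library at a time also turned signs, with these ranges. In ECs Cldn5 read -0.037 to 0.16 and Cldn1 -1.27 to 0.094 at P10, Cldn5 -0.076 to 0.12 and Tjp1 -0.11 to 0.0023 at 18 months, and Cldn1 -0.75 to 0.52 in EAE; the end opposite to the full data was the one without adult library 1, or for Tjp1 without aged library 2. In CPE at 18 months Tjp1 read -0.14 to 0.075, F11r -0.26 to 0.0028 and Cldn1 -0.094 to 0.33. In Fibro Cldn11 read -0.80 to 0.28 at 18 months and -0.71 to 0.37 in EAE (both positive without adult library 2), and Esam -2.21 to 0.33 in EAE. Tjp1 read -0.12 to 0.030 between CPE and Fibro and -0.093 to 0.064 between arteries and veins. In the difference of change at 18 months, Cldn11 read -0.14 to 0.14, Tjp1 -0.18 to 0.090 and Jam2 -0.23 to 0.21.

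Thinned to 1000 UMIs, the mean share of cells was 38.9% for Cldn11 and 0.800% for Cldn1 in Fibro, 74.1% for Esam, 12.4% for F11r, 25.9% for Jam2, 31.0% for Ocln and 17.8% for Tjp1 in ECs, 8.63% for Ocln and 2.10% for Tjp1 in CPE, and 1.55% for Tjp1 in Fibro. The adult, aged and EAE Fibro units held 18 to 40 cells each, which limits their precision.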
